A study of Mus musculus with 4 samples.

Results

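Levels of 8 genes for stem cell transcription factors (Mecom, Hlf, Mllt3, Gata2, Mycn, Tcf15, Erg and Lmo2) were read from single bone marrow cells. The genes were taken by symbol from the 32285 genes counted, and each symbol matched 1 row. RNA and surface antibodies had been counted together in mouse bone marrow cells taken 10 weeks after transplantation that carried CD45.2, an allelic form of the leukocyte antigen CD45, and Kit, a receptor of blood stem and progenitor cells. The labels name a control (library name wt) and Mll3SI, Mll4SI and Mll3/4SI groups, and each group is 1 library. They do not spell out SI, and give no strain, animal number, sex, donor age or allele beyond these names, nor what the hashtag antibodies marked. Kmt2c and Kmt2d, the genes of MLL3 and MLL4, encode enzymes that methylate histone H3 at enhancers, and the series title concerns their part in the identity of stem and myeloid cells and in B-cell priming. With 1 library a group, no difference between groups could be checked against replicates, and each interval in brackets is a 95% interval that covers counting error only. Where 4 values follow each other they are for control, Mll3SI, Mll4SI and Mll3/4SI, in this order, and 3 log2 ratios are those of the last 3 groups to control.

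Blood stem cells are kept by a network of transcription factors that bind many of the same enhancers. MECOM, a zinc finger protein, and HLF, a bZIP protein, are known for being restricted to the most immature cells and for being needed for self-renewal. GATA2, ERG and the bridging protein LMO2 belong to a set of factors that occupy DNA together and stay in use in several progenitor types, MLLT3 is part of the machinery of transcription elongation, MYCN is a MYC family member, and TCF15 is a bHLH factor linked to stem cell quiescence.

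The genes lie at the following places in mouse build GRCm38 (GENCODE M21): Mecom (ENSMUSG00000027684) at chr3:29951296-30548008, Hlf (ENSMUSG00000003949) at chr11:90336536-90390895, Mllt3 (ENSMUSG00000028496) at chr4:87769925-88033364, Mycn (ENSMUSG00000037169) at chr12:12936093-12941914 and Erg (ENSMUSG00000040732) at chr16:95359169-95586593, all on the minus strand. Gata2 (ENSMUSG00000015053) at chr6:88193891-88207032, Tcf15 (ENSMUSG00000068079) at chr2:152143561-152149097 and Lmo2 (ENSMUSG00000032698) at chr2:103957986-103981878 are on the plus strand. All 8 are annotated as protein coding. Lmo2 is overlapped over 14936 bases by the protein-coding gene 4931422A03Rik on the opposite strand, and Mecom over 42430 bases by the antisense gene Mecomos, and both are counted in the files. Whether the counting used strand was not given in the sources used here, so reads of these pairs cannot be told apart.

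Of the 8 genes, 6 had entries in the RefSeq promoter table of build GRCm38.p6. The 250 bases before the annotated starts of Mecom and Hlf are shown, because both genes had their highest level in the HSC/MPP-like cells (stem cells and multipotent progenitors, defined below by markers) of all 4 libraries, and because GATA2 and ERG of the same group bind GATA and ETS motifs. Capitals mark GATAA and GGAA on either strand (GATAA or TTATC, and GGAA or TTCC), which do not overlap each other here. Each sequence reads 5′ to 3′ on the minus strand, the coding strand of both genes. They stand at chr3:30509760-30510009 for the first Mecom start, chr3:30013205-30013454 for the second, and chr11:90390918-90391167 for Hlf.
Mecom, first start: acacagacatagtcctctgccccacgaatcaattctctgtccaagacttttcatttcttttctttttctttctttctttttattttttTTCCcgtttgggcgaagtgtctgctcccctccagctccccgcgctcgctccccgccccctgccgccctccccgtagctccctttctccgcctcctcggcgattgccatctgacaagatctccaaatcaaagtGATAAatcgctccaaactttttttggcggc
Mecom, second start: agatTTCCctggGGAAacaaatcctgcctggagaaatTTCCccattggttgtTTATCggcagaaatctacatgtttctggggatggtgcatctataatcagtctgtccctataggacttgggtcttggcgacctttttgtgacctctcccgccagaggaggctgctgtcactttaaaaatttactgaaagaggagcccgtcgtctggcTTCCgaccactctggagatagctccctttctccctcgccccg
Hlf: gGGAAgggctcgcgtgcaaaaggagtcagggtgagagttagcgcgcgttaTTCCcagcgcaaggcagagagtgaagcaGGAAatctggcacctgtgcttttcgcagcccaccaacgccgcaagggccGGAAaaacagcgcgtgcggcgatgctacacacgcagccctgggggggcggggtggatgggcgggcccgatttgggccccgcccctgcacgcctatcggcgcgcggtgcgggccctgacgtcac

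Each Mecom window held 1 GATAA match, and the Hlf window held 0. Over 32851 promoter windows of the same length, 22.6% held a GATAA match and 93.4% a GGAA match, so a GGAA match is near universal in windows of this size. The second Mecom window held 4 GGAA matches, the first 1, and the Hlf window 4, against a median of 3. A match describes letters only, and counts taken at the 3′ end of transcripts do not tell which start was used.

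The deposited libraries held 7524 to 11678 cell barcodes with 140546094 to 177753607 gene UMIs (unique molecular identifiers, 1 per captured transcript), of which 6743, 8023, 10186 and 6755 cells were kept. Median depth per kept cell was 12800 (Mll4SI) to 19185 (Mll3/4SI) UMIs, and pairs of libraries shared 11 to 21 kept barcodes. Kit stood at 100.2 to 112 CPM (counts per 1000000 gene UMIs) and Ptprc, which encodes CD45, at 179 to 312 CPM. Kmt2c stood at 129.6, 110.3, 147 and 123 CPM and Kmt2d at 41.3, 38.0, 35.1 and 33.3 CPM, and the labels do not say whether these transcripts should differ. The libraries fell into pairs by genes of the sex chromosomes: Xist was at 0.0315, 0.194, 1148 and 1359.8 CPM, while Eif2s3y was at 63.3, 62.0, 0 and 0 CPM. That split and the Mll4SI and Mll3/4SI groups cannot be told apart in any comparison below.

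Cells were clustered on genes that included neither the 8 members nor any marker, and clusters were named from marker genes. Clusters 6 and 9 carried the markers of stem cells and multipotent progenitors and are called HSC/MPP-like. They held 923, 932, 773 and 399 cells, or 13.7%, 11.6%, 7.59% and 5.91% of kept cells. All 18 HSC/MPP markers were detected in this class in each library, with summed levels of 2674 to 3254 CPM. The class was named by these markers, so this is no separate support for the name. Of the 18, 9 in cluster 6 and 8 in cluster 9 reached the log2 fold of 1 asked for naming. Among markers of other cells, the 15 granulocyte genes summed to 16429 CPM within the HSC/MPP-like cells of Mll4SI and to 8339, 8944 and 9611 CPM in the other 3 libraries, with none at 0. Their part in the Mll4SI values below was not tested. In Mll3/4SI a further 1817 cells (26.9%) formed 2 clusters led by Cpa3 and Fcer1a that carried both stem and mast cell markers, met no naming rule and held only 4 cells of the other libraries, all of Mll4SI. They are called Cpa3/Fcer1a cells and were kept apart.

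Mecom levels differed between all 4 libraries in HSC/MPP-like cells. Control held 186 CPM [181, 192], Mll3SI 234 CPM [227, 241], Mll4SI 137 CPM [131, 142] and Mll3/4SI 118 CPM [111, 124]. The order was thus Mll3SI, control, Mll4SI, Mll3/4SI, and no neighbours in it had overlapping counting intervals. As log2 ratios to control of CPM + 1, the scale used for all ratios in this class, this was 0.33 [0.26, 0.39] for Mll3SI, -0.44 [-0.52, -0.37] for Mll4SI and -0.66 [-0.76, -0.57] for Mll3/4SI. The intervals of ratios were taken without the added CPM.

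Hlf, which is found with Mecom in immature cells, varied less. Control cells held 119.9 CPM [115, 125], Mll3SI cells 122 CPM [117, 128], Mll4SI cells 118 CPM [113, 124] and Mll3/4SI cells 98.2 CPM [92.4, 104]. Over all cells of the class, only the Mll3/4SI library stood apart from the other 3 beyond counting error, with a log2 ratio of -0.29 [-0.39, -0.18]. The size of this difference depended on the cells taken. Between like hashtags it was -0.39 in the Hashtag1 cells and -0.06 in the Hashtag2 cells (113 CPM against 118 CPM in control). Ratios in Mll3SI (0.03) and Mll4SI (-0.02) had intervals that included 0. Mllt3, the elongation factor, stood at 60.0, 64.1, 64.4 and 53.8 CPM, with log2 ratios of 0.09 [-0.02, 0.21], 0.10 [-0.02, 0.22] and -0.15 [-0.30, -0.02]. The last of these turned to above 0 in 4 of 16 alternatives, among them the Hashtag2 cells (0.16).

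Lmo2, which bridges GATA and bHLH factors on DNA, was likewise highest in Mll3SI, with control next. Lmo2 reached 588 CPM [577, 598] with control, 666 CPM [654, 678] with Mll3SI, 469.6 CPM [459, 480.0] with Mll4SI and 496 CPM [483, 509] with Mll3/4SI. The log2 ratios were 0.18 [0.14, 0.22], -0.32 [-0.36, -0.28] and -0.24 [-0.29, -0.20]. The gene on its opposite strand, 4931422A03Rik, stood at 44.7, 46.1, 36.4 and 34.6 CPM in the same libraries, and Mecomos, opposite Mecom, at 2.15, 1.70, 1.23 and 0.645 CPM.

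Gata2, a zinc finger factor of stem, mast and early erythroid cells, went another way. Its levels were 67.5, 61.2, 84.7 and 63.9 CPM. The Mll4SI library was highest, with a log2 ratio of 0.32 [0.22, 0.43], against -0.14 [-0.26, -0.03] in Mll3SI and -0.08 [-0.21, 0.05] in Mll3/4SI. In Mll3SI the direction turned in 3 of 16 alternatives, among them the Hashtag2 cells (0.11). The 9 basophil/mast markers, of which 1 was at 0, summed to 466, 331, 638 and 655 CPM within the same cells, and their part in the Gata2 values was not tested. Erg, an ETS factor, was nearly level at 162, 157, 181 and 160.4 CPM, with Mll4SI again highest at a log2 ratio of 0.16 [0.09, 0.23].

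Mycn and Tcf15 were sparse. Mycn had 146, 158, 112 and 73 UMIs in this class, or 6.83, 9.27, 6.58 and 6.73 CPM, and was highest in Mll3SI with a log2 ratio of 0.39 [0.11, 0.78]. Tcf15 had 43, 25, 12 and 13 UMIs, or 2.01, 1.47, 0.705 and 1.20 CPM, with log2 ratios of -0.29, -0.82 and -0.45. The interval left out 0 only in Mll4SI [-2.57, -0.57].

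Counted against a threshold of 1.5-fold, few members differed. Of the 8 members, 7 reached the mean of 5 CPM over the 4 libraries asked of all genes, and Tcf15 did not. In Mll3SI 0 of these 7 members lay past the threshold in either direction, beside 0.527% of all 10061 genes that reached the minimum on the higher side and 0.666% on the lower side. In Mll4SI 0 of 7 passed, with Tcf15 past it on the lower side outside the minimum, beside 2.19% of genes higher and 2.01% lower. In Mll3/4SI Mecom alone passed, on the lower side, beside 1.70% of genes higher and 1.56% lower. The median log2 ratio over all genes tested was 0.01, -0.01 and -0.05 in the 3 comparisons, which share the control library.

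**Figure D1:**
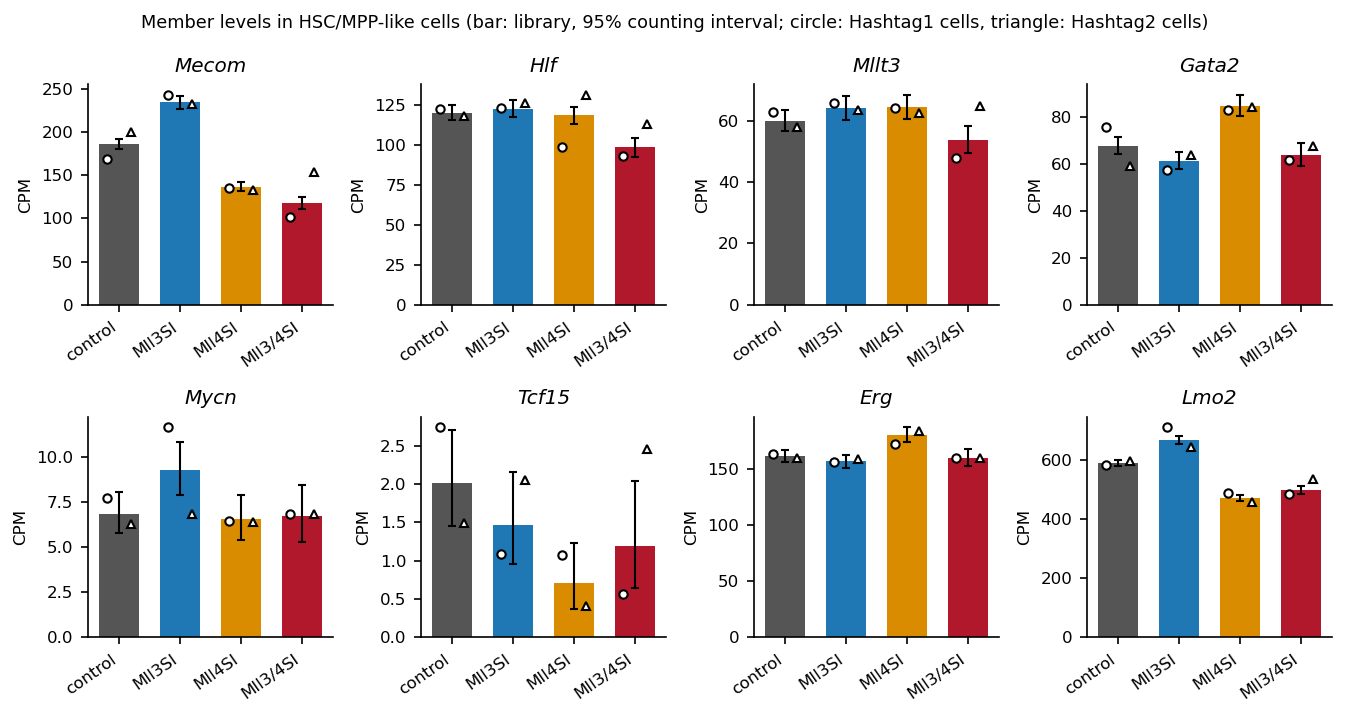
Level of each member in HSC/MPP-like cells (CPM, vertical axis from 0, own scale per gene) in the 4 libraries; bars are library sums with 95% counting intervals, open circles the cells called for Hashtag1 and triangles those called for Hashtag2. Mecom is highest for Mll3SI (234), then control (186), then Mll4SI (137), and lowest for Mll3/4SI (118), while Erg is nearly level and Tcf15 rests on 12 to 43 UMIs.

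The 2 hashtags split each library into separate sets of cells, which the labels do not define, so these sets are not replicates. Mecom stood at 168 and 200.1 CPM in the Hashtag1 and Hashtag2 cells of control, at 243 and 232 CPM in those of Mll3SI, at 135 and 132 CPM in those of Mll4SI, and at 101 and 154 CPM in those of Mll3/4SI. In none of the 3 comparisons did the sets overlap those of control. Mll3/4SI stood below Mll4SI in the Hashtag1 cells and above it in the Hashtag2 cells. Between like hashtags the log2 ratio was 0.53 and 0.21 for Mll3SI, -0.31 and -0.59 for Mll4SI, and -0.73 and -0.37 for Mll3/4SI, so that Mecom was past 1.5-fold in the Hashtag1 cells of Mll3/4SI and short of it in the Hashtag2 cells.

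Such separation was common among all genes. In Mll3SI both sets lay above those of control for 4 of the 7 members (Lmo2, Mecom, Mllt3 and Hlf), beside 25.1% of all genes, and below for Erg, beside 19.4%. In Mll4SI they lay above for Gata2 and Erg, beside 25.4%, and below for Lmo2 and Mecom, beside 29.9%. In Mll3/4SI they lay above for 0 members, beside 15.9%, and below for Lmo2, Mecom and Hlf, beside 32.9%. Lmo2 had log2 ratios of 0.29 and 0.11, -0.26 and -0.38, and -0.27 and -0.16 in the 3 comparisons. Hlf in Mll4SI differed between the hashtags (98.8 and 131 CPM) and overlapped control. The sets of Mycn overlapped those of control in all 3 comparisons.

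Part of the difference in Mecom was seen in the share of cells with a transcript. After each cell was thinned to 3000 UMIs, Mecom was detected in 31.0% [28, 34.1], 38.8% [35.6, 42.0], 24.9% [21.9, 28.1] and 21.4% [17.4, 25.7] of HSC/MPP-like cells. In granulocyte-like cells of the same libraries, which should hold little Mecom, the share was 0.836%, 1.29%, 0.163% and 0.130%. Median depth before thinning was 22155, 17086, 20683 and 25392 UMIs in HSC/MPP-like and 15839.5, 12616, 11718.5 and 17891 in granulocyte-like cells, and unthinned shares of Mecom in HSC/MPP-like cells were 61.1%, 67.2%, 40.6% and 46.9%. The thinned share left out 1, 3, 3 and 1 shallower HSC/MPP-like cells and 20, 23, 62 and 19 granulocyte-like cells.

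Hlf was detected in 25.7%, 25.6%, 21.9% and 20.9% of thinned HSC/MPP-like cells and in 4.81%, 4.25%, 5.47% and 3.91% of granulocyte-like cells. Gata2 was found in 15.9%, 14.4%, 17.9% and 13.3% against at most 0.418% of granulocyte-like cells. Erg and Lmo2 were not restricted in this way: Erg was detected in 36.0% to 41.3% of HSC/MPP-like and 33.5% to 42.2% of granulocyte-like cells, and Lmo2 in 70.6% to 82.2% against 24.1% to 33.3%. A thinned HSC/MPP-like cell held 3 or more of the 8 members in 33.0% [29.9, 36.1], 34.4% [31.4, 37.6], 30% [26.8, 33.4] and 24.4% [20.2, 28.9] of cases, against 0.816% to 1.09% of granulocyte-like cells.

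Within HSC/MPP-like cells, 3 of the 28 pairs of members were found in the same thinned cells more often than the product of their single shares, with the counting interval of the joint share above that product in each of the 4 libraries. Mecom and Hlf were found together in 14.5%, 15.6%, 12.5% and 11.1% of cells, which was 1.82, 1.57, 2.28 and 2.48 times the product. The pair of Hlf and Mllt3 stood at 1.71, 1.90, 1.69 and 1.82 times, and that of Mecom and Mllt3 at 1.48, 1.46, 1.60 and 1.92 times. Erg and Lmo2, detected across the class, stood at 0.995 to 1.03 times. Cells of 1 library share its depth and free RNA, so these ratios describe cells and are given with no test. The share of all gene pairs found together this often was not computed, so the count of 3 pairs is not a trait shown for the members alone.

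The 2 HSC/MPP-like clusters differed in cell cycle genes, with Mki67 at 38.1 to 60.9 CPM in cluster 6 and 412 to 456 CPM in cluster 9. In the less proliferative cluster 6 Mecom stood at 218, 280.4, 141 and 132 CPM. In cluster 9 it stood at 161, 194, 134 and 108 CPM. The order of libraries was the same in both, and the distance between control and Mll4SI was wider in cluster 6 (log2 ratio -0.63) than in cluster 9 (-0.27), a difference that was not tested. Gata2 was the member higher in the proliferating cluster, at 71.0 to 98.1 CPM against 48.0 to 66.2 CPM in cluster 6.

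Surface antibodies, which took no part in the clustering, ordered the same cells. Sca-1 and CD150 mark blood stem cells and CD48 is carried by more mature progenitors. In the 25% of HSC/MPP-like cells with the highest share of Sca-1 antibody (Sca-1-high), Mecom stood at 626, 717, 451 and 441 CPM, and in the lowest 25% (Sca-1-low) at 47.6, 78.1, 37.2 and 16.4 CPM. The Sca-1-high cells were higher by log2 3.69, 3.18, 3.56 and 4.67, and for Hlf by 3.53, 3.19, 2.56 and 4.23. Mllt3 (1.51 to 2.32), Mycn (2.74 to 4.48) and Tcf15 (1.66 to 2.91) also stood higher in Sca-1-high cells in all 4 libraries, whereas Erg (0.37 to 0.65), Lmo2 (0.51 to 0.64) and Gata2 (0.19 to 0.94) differed less. The Sca-1-low cells held only 9, 5, 11 and 8 Mycn UMIs and 2, 1, 1 and 0 Tcf15 UMIs. Tcf15 had 35, 18, 9 and 12 UMIs in Sca-1-high cells. The sizes of the Mycn and Tcf15 ratios therefore depend on the added CPM. Depth and cluster moved with the antibody: in control the Sca-1-high cells had a median of 15662 UMIs and were 70.9% cluster 6, the Sca-1-low cells 26839.5 UMIs and 42.2%. Their part in these ratios was not tested.

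CD150 gave the same direction for Mecom, with log2 ratios of 2.04, 2.04, 2.52 and 2.51, and set Gata2 apart from Lmo2: the ratio of CD150-high to CD150-low cells was 1.15, 1.43, 1.25 and 1.81 for Gata2 and 0.10, 0.22, -0.05 and 0.23 for Lmo2. For CD48 the direction was opposite. Mecom was at -1.78, -2.64, -2.0 and -2.87 and Hlf at -1.57, -2.71, -1.17 and -2.33 on the log2 scale in the cells richest in CD48. The median CD48 share of antibody UMIs was 75.7% to 79.9% in those cells and 39.5% to 57.8% in the cells poorest in it. That of CD150 was low throughout, at 0.412%, 1.11%, 0.519% and 0.779% in CD150-high cells. In CD150-low cells it was 0%, 0.0441%, 0% and 0.0188%. Shares of 1 whole depend on each other, so the CD48 direction is not independent of those for Sca-1 and CD150. The Sca-1-high cells held a median Sca-1 share of antibody UMIs of 5.52%, 7.17%, 1.05% and 6.15%, so that the sets are matched by rank within a library and not by antibody amount. Among Sca-1-high cells the log2 ratio of Mecom to control was 0.19 in Mll3SI and -0.51 in Mll3/4SI, short of 1.5-fold. Hlf stood at 380, 373, 316 and 366 CPM in these cells, so that Mll4SI was lowest there and not Mll3/4SI.

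**Figure D2:**
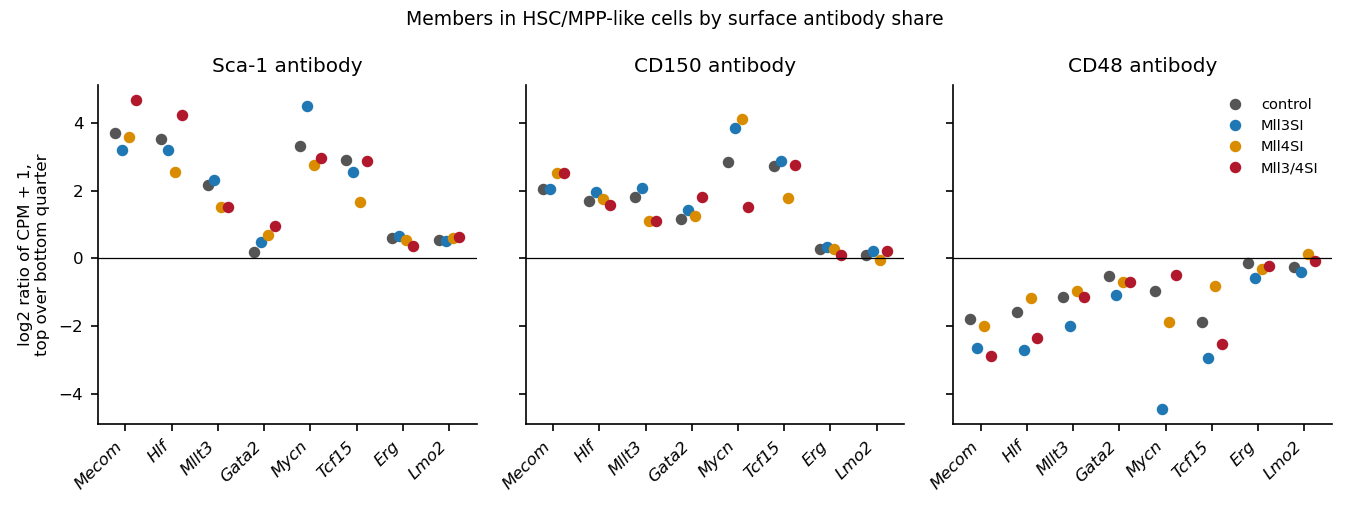
Log2 ratio of CPM + 1 between the 25% of HSC/MPP-like cells with the highest and the 25% with the lowest share of each surface antibody (vertical axis), for the 8 members, 1 point per library. Mecom, Hlf, Mllt3, Mycn and Tcf15 lie well above 0 for Sca-1 in all 4 libraries, at 1.51 or more, while Erg and Lmo2 lie between 0.37 and 0.65. Mycn and Tcf15 rest on at most 11 and 2 UMIs per library in the cells of lowest Sca-1 share.

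Outside the HSC/MPP-like cells the members divided by lineage. Mecom was highest in HSC/MPP-like cells in all 4 libraries among the named cell groups and the Car1/Pf4 cells, an unnamed cluster led by these genes with both stem and erythroid markers. Gata2 was highest in basophil/mast-like cells, at 575, 478, 578 and 589 CPM. Mycn was highest in Car1/Pf4 cells in all 4 libraries, at 37.0, 56.1, 53.2 and 46.9 CPM, with erythroid-like cells next at 28.8, 35.6, 47.6 and 31.5 CPM. Tcf15 stood at 4.08, 6.93, 2.11 and 4.79 CPM in Car1/Pf4 cells, on 16, 21, 4 and 5 UMIs, with intervals that overlapped those of erythroid-like cells in each library. Among the named groups Erg was highest in B-lymphoid-like cells, at 293, 318, 224 and 328 CPM, while the 66 to 141 cells per library of the remaining unnamed clusters held 224, 204, 307 and 391 CPM. Lmo2 stood at 636, 720.4, 561 and 671 CPM in Car1/Pf4 cells and at 22.5 to 43.4 CPM in B-lymphoid-like cells.

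**Figure D3:**
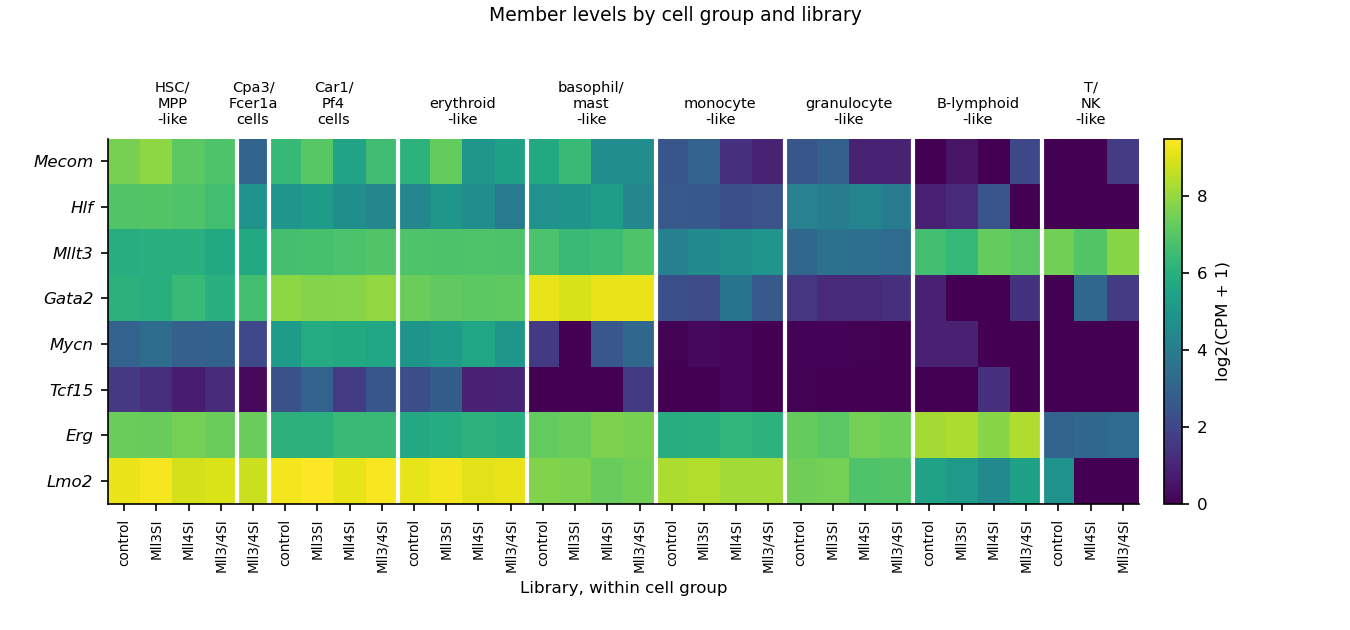
Level of each member as log2(CPM + 1), shown by colour, in the cells of each named or described cell group and library; sets of fewer than 20 cells are left out. Colours are to be read along a row: Mecom and Hlf are brightest in HSC/MPP-like cells, Gata2 in basophil/mast-like cells and Erg in B-lymphoid-like cells.

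The directions of Mecom against control recurred in most of the other cell groups, but the order of Mll4SI and Mll3/4SI did not. Mll3/4SI stood above Mll4SI in erythroid-like cells and in Car1/Pf4 cells (93.9 against 45.9 CPM). In erythroid-like cells Mecom stood at 70.0, 153, 31.4 and 42.4 CPM. In basophil/mast-like cells the levels were 54.0, 83.3, 23.9 and 24.3 CPM. Without added CPM the log2 ratios were 1.12 [0.92, 1.33], -1.16 [-1.54, -0.79] and -0.72 [-1.07, -0.39] in erythroid-like cells and 0.63 [0.23, 1.03], -1.17 [-1.82, -0.57] and -1.15 [-1.86, -0.50] in basophil/mast-like cells. These rest on 24 to 519 UMIs per library. Over the 6 groups with enough cells in every library (HSC/MPP-like, Car1/Pf4, erythroid-like, basophil/mast-like, monocyte-like and granulocyte-like), Mecom was higher than control in 6 of 6 in Mll3SI, with an interval above 0 in each, as for 0.904% of all 10061 genes. It was lower in 6 of 6 in Mll4SI, with an interval below 0 in each, as for 0.885% of genes. In Mll3/4SI it was lower in 5 of 6, and 0 members left out 0 in all 6 groups in either direction, beside 0.726% of genes above and 0.775% below. The exception was the Car1/Pf4 cells, at 82.2 CPM in control and 93.9 in Mll3/4SI, with a log2 ratio of 0.19 [-0.15, 0.52]. The 10061 genes were those at the minimum in HSC/MPP-like cells. Mecom itself had means under 5 CPM in monocyte-like cells (4.76, 7.01, 1.58 and 0.891 CPM) and granulocyte-like cells (4.83, 6.58, 0.929 and 0.875 CPM). In monocyte-like cells it rested on 91, 147, 31 and 8 UMIs. Cell groups of 1 library share its source and preparation, so they are not independent.

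In granulocyte-like cells different clusters held most cells of different libraries (clusters 0 and 1 in control and Mll3SI, 2 and 3 in Mll4SI, 12 and 14 in Mll3/4SI), so the comparison was also made in the 2 clusters rich in Elane, a gene of early granulocyte precursors, which all libraries shared. There Mecom stood at 16.1 CPM [14.4, 17.9], 17.7 CPM [16.1, 19.3], 5.18 CPM [4.17, 6.37] and 5.99 CPM [4.55, 7.74]. Without added CPM, Mll4SI and Mll3/4SI were below control by log2 ratios of -1.63 [-1.99, -1.29] and -1.42 [-1.85, -1.02]. On the scale of CPM + 1 these were -1.47 and -1.29. The intervals of control and Mll3SI overlapped. In the same clusters Lmo2 stood at 346, 330.3, 293 and 303 CPM, and Hlf at 14.2, 14.1, 11.8 and 12.1 CPM.

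Lmo2 in Mll4SI was lower than control in 6 of 6 groups, in 5 with an interval that left out 0, beside 8.80% of all genes lower in all 6. Erg in Mll4SI was higher in 6 of 6, with such an interval in each, as for 0.964% of genes. Hlf in Mll3/4SI was lower in 6 of 6 groups, with intervals that left out 0 in 2 of them, beside 13.5% of genes lower in all 6. Gata2 in Mll3SI was lower in 6 of 6, beside 5.37% of genes, and in 4 with such an interval, while 0.437% of genes, none of them a member, had one in all 6. In monocyte-like cells, where Gata2 is low, it stood at 3.93, 3.57, 11.9 and 5.23 CPM, and Mllt3 stood at 16.8, 22.9, 26.1 and 29.6 CPM. Without added CPM the log2 ratio of Gata2 in Mll4SI monocyte-like cells was 1.60 [1.22, 2.0]. Gata2 rested on 75, 75, 233 and 47 UMIs there. Control and Mll3SI were under 5 CPM, and the mean that met the minimum includes the high Mll4SI level. Gata2 in granulocyte-like cells and Hlf in monocyte-like cells had means under 5 CPM.

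**Figure D4:**
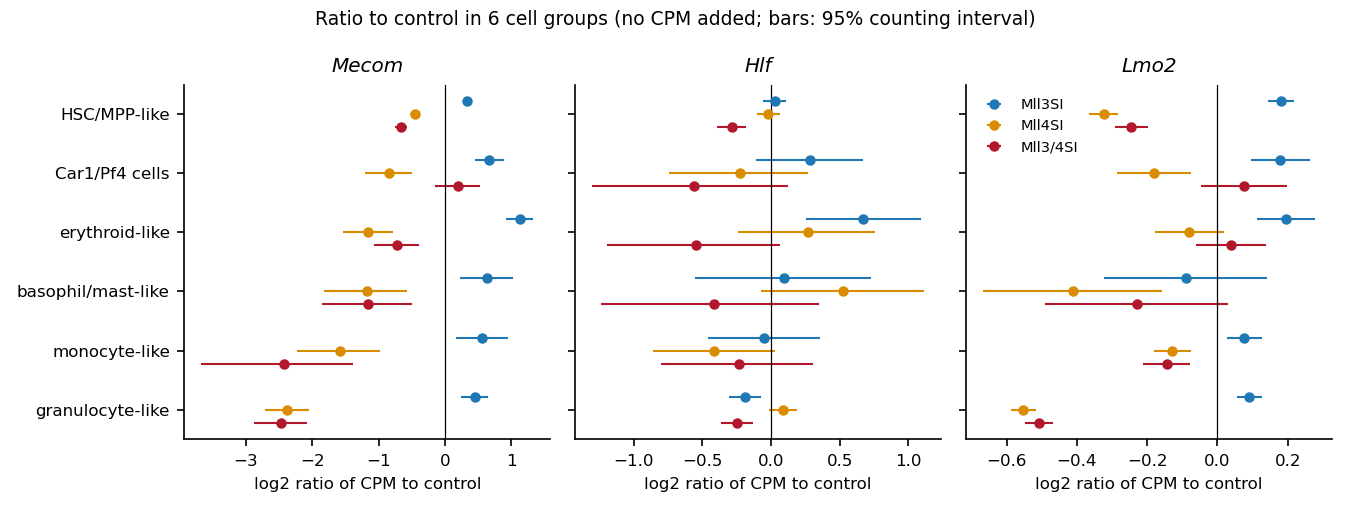
Log2 ratio of CPM to control, without added CPM (horizontal axis, own scale per gene), of Mecom, Hlf and Lmo2 in 6 cell groups; points are libraries and bars 95% counting intervals. Mecom lies right of 0 in Mll3SI in all 6 groups and left of 0 in Mll4SI in all 6, and in Mll3/4SI it lies left of 0 except in Car1/Pf4 cells.

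The Cpa3/Fcer1a cells of Mll3/4SI held some of the members near the level of HSC/MPP-like cells and not others. Compared with the HSC/MPP-like cells of the same library, Mecom stood at 7.43 against 118 CPM, a log2 ratio of -3.82, and Hlf at 27.8 against 98.2 CPM, a ratio of -1.78. Erg was level at 164 against 160.4 CPM (0.03 [-0.04, 0.11]), as was Mllt3 at 53.9 against 53.8 CPM (0.00 [-0.13, 0.14]). Erg was also level with the granulocyte-like cells of this library, at 167 CPM (-0.02 [-0.07, 0.02]). Mllt3 was below the 115 CPM of basophil/mast-like and the 119.7 CPM of Car1/Pf4 cells. Lmo2 stood at 424 against 496 CPM in HSC/MPP-like cells (-0.22). Gata2, at 97.5 CPM, was above the HSC/MPP-like level of 63.9 CPM and below the 589 CPM of basophil/mast-like cells, by log2 ratios of 0.60 and -2.58. Of these cells 12.9% [11.4, 14.5] held 3 or more members after thinning.

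That state held 30.6% of all gene UMIs of the kept Mll3/4SI cells. It held 68.0% of the Gata2 UMIs, 51.4% of those of Mllt3, 49.3% of Lmo2, 41.5% of Mycn, 34.9% of Hlf, 31.8% of Erg, 26.7% of Tcf15 and 17.1% of Mecom. HSC/MPP-like cells held 77%, 70.6%, 87.8% and 67.6% of the Mecom UMIs, beside 16.8%, 13.8%, 11.6% and 7.63% of all gene UMIs. For Erg the largest holder in all 4 libraries was the granulocyte-like class, with 66.0%, 64.8%, 77.4% and 54.5%, beside 58.3%, 60.6%, 70.4% and 51.4% of all gene UMIs. Counting the Cpa3/Fcer1a cells as HSC/MPP-like would set the log2 ratio of Mecom in Mll3/4SI at -2.62 in place of -0.66, and put 4 of all 8 members, Tcf15 among them, past 1.5-fold on the lower side in place of 1. The share of all genes past 1.5-fold in that set was not computed.

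**Figure D5:**
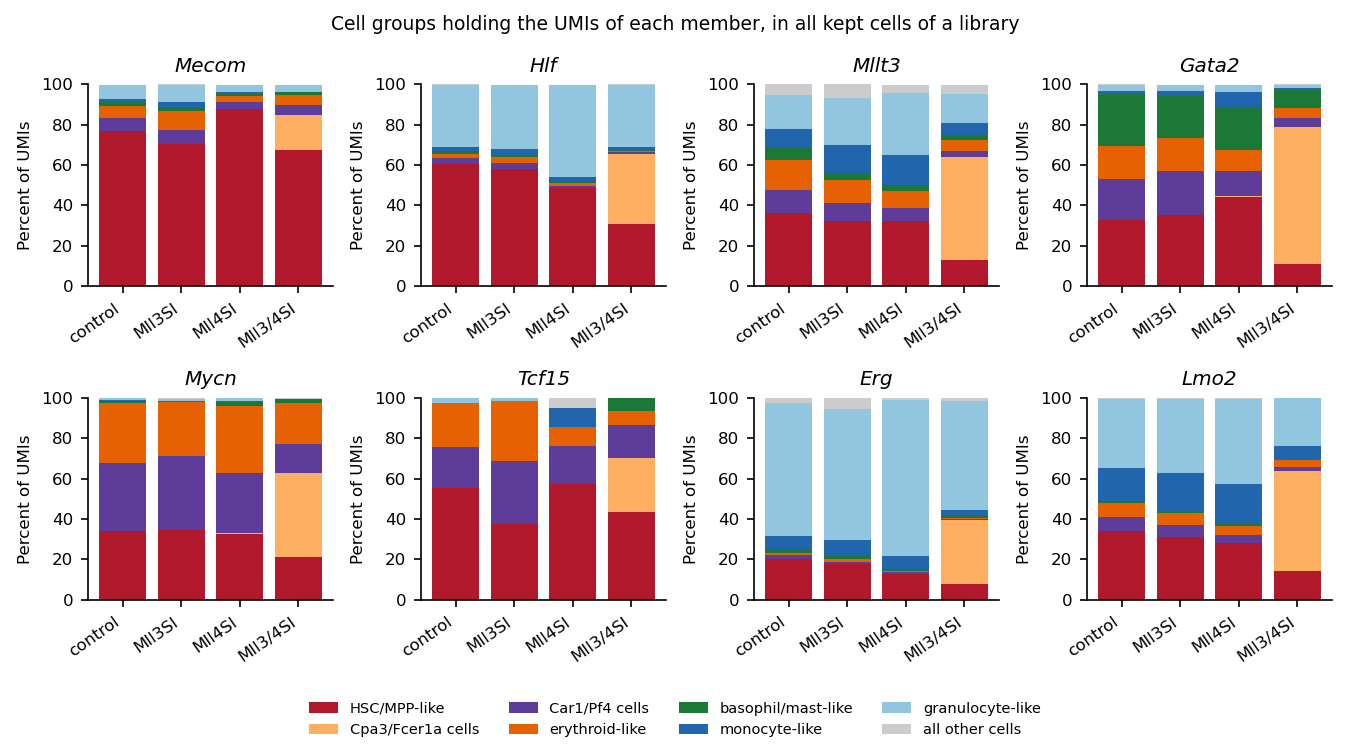
Percent of the UMIs of each member (vertical axis) found in each cell group, over all kept cells of a library. Most Mecom UMIs lie in HSC/MPP-like cells in all 4 libraries, between 67.6% and 87.8%, and most Erg UMIs in granulocyte-like cells, while 68.0% of the Gata2 UMIs of Mll3/4SI lie in the Cpa3/Fcer1a cells.

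The 41 listed partners and fellow factors of the members, among them the GATA2, LMO2 and ERG co-factors Tal1, Lyl1, Ldb1, Runx1 and Fli1, were read in HSC/MPP-like cells, and 38 reached 5 CPM. In Mll3SI 0 lay past 1.5-fold on the higher side and 1 on the lower, in Mll4SI 1 and 2, and in Mll3/4SI 0 and 0. Over all genes these shares were 0.527% and 0.666%, 2.19% and 2.01%, and 1.70% and 1.56%. Medians of the log2 ratio over the 38 were 0.03, -0.02 and -0.11. The gene past the threshold in Mll3SI was Nfil3, a bZIP repressor that binds sites like those of HLF, at 9.45 CPM in control and 5.40 in Mll3SI (-0.71). In Mll4SI they were Mxd1, a MAX partner, at 7.77 against 16.2 CPM (0.97), and the homeobox genes Hoxa9, at 49.8 against 31.4 CPM (-0.65), and Hoxa10, at 8.33 against 3.11 CPM (-1.18).

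Prdm16, the closest relative of Mecom, stood at 6.46, 9.39, 4.93 and 8.20 CPM, and was among the 2 highest of the list in Mll3SI (0.48) and Mll3/4SI (0.30). Mxd4 (0.20) was the other in Mll3/4SI, while Ikzf2 (0.51) stood beside Mxd1 in Mll4SI. Hoxa10 was among the 2 lowest in each comparison, at -0.39 in Mll3SI and -0.56 in Mll3/4SI, with Nfil3 at -0.54 in Mll3/4SI. Tal1, the bHLH partner of LMO2, stood at -0.05, 0.19 and -0.11.

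Genes with the most similar profiles were sought over 28 sums of cells by group and library, among 9210 genes, as a description of points that share libraries, depth and cell groups. For Mecom these were Gcnt2 (Pearson's r 0.92), Samd12 (0.91) and Hoxa9 (0.90), and for Hlf they were Gcnt2 (0.85), Adgrl4 (0.84) and Mecom itself (0.83). For Mycn, Arhgef12 (0.98) and Rbpms2 (0.98) were among the 3 nearest. Gata2 was nearest to Slc18a2, a monoamine transporter gene (0.98), Gna14 (0.97) and Cuedc1 (0.97). For Mllt3 they were Dmxl1 (0.96), AI504432 (0.96) and Syf2 (0.95), for Tcf15 Ryk (0.88), Nbea (0.87) and Tmem158 (0.87), and for Erg the nearest 2 were Stat4 (0.88) and Mctp2 (0.83). Lmo2 was nearest to 4931422A03Rik (0.96), the gene that overlaps it on the opposite strand, ahead of Bin2 (0.90) and Mtfr1l (0.89). Among the members themselves, the closest profiles were those of Mecom with Hlf (0.83) and of Mycn with Tcf15 (0.83), and Erg had values between -0.38 and 0.30 with the other 7. Tcf15 reached at most 6.93 CPM in any of these groups, under the 10 CPM added, which limits its correlations. The choice depended on the measure. With Spearman's rank correlation the 3 nearest genes of Gata2 and Tcf15 were all different ones, and for no member were all 3 the same.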

How the data were processed

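The authors deposited UMI counts for each gene and antibody in each called cell, covering 32285 genes, 13 surface antibodies and 2 hashtags. Cell Ranger 7.1.0 is recorded per the file headers. Build mm10 is named in the submitters' processing notes; the annotation, strand use, intron counting and cell-calling settings were not given in the sources used here. Groups came from the sample titles. No column belonged to another series.

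Cells were kept with at least 1000 gene UMIs, at least 500 genes and at most 10% mitochondrial UMIs. Scrublet removed the top 0.8% per 1000 cells of each library (409 control, 594 Mll3SI, 1001 Mll4SI and 411 Mll3/4SI cells). The 4 libraries were clustered jointly in scanpy 1.11.5 (2000 variable genes, leaving out members, partners, markers and sex genes; 30 components; 15 neighbours; Leiden resolution 1 with leidenalg 0.10.2), which gave 27 clusters. A cluster took a class name with at least 3 markers at a log2 fold of 1 or more (10 CPM added), a lead of 2 over the next class, and no other class leading among its top 10 genes. These class names are a reconstruction, so the study's own may differ. Hashtag thresholds (132 and 334 UMIs) lay between the modes of the pooled counts.

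UMIs were summed per cell group and library and scaled to CPM. Ratios are log2 of CPM + 1 unless given as without added CPM, and genes entered counts with a mean of at least 5 CPM over the 4 libraries. Intervals are exact Poisson, binomial conditional (ratios) or Clopper-Pearson (shares), at 95%. The code was tested on simulated data. Named genes were the 8 members, the 2 highest and 2 lowest partners per comparison (with those past 1.5-fold), and the 3 nearest profiles per member by Pearson correlation of log2(CPM + 10), among genes reaching 20 CPM over sums of at least 50 cells. Some genes that this rule names are not reported here. The Elane-rich clusters (10000 CPM or more in control) and 4 alternatives were chosen after seeing the data. The members and all lists were chosen with earlier results of these data known. Scripts ran in Python 3.11.15 with pandas 2.3.3, scikit-learn 1.9.0, matplotlib 3.10.9, scipy 1.17.1 and numpy 2.4.6.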

Additional observations from a re-analysis of the deposited data

How the results depend on the processing

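The directions of Mecom and Lmo2 in Mll4SI and Mll3/4SI, of Hlf in Mll3/4SI and of Erg and Tcf15 in Mll4SI were kept in 16 of 16 alternatives, and that of Mecom in Mll3SI in 15 of 16. The direction of Gata2 in Mll3SI turned in 3 of 16 and that of Mllt3 in Mll3/4SI in 4 of 16. Sizes moved with which cells were taken, and the cause was not tested. The log2 ratio of Hlf in Mll3/4SI lay between -1.49 and -0.06 over the alternatives, against -0.29 in the main class. Counts of members past 1.5-fold here are over all 8, Tcf15 included though it is under the 5 CPM minimum, against 0 lower in Mll3SI, 1 (Tcf15) in Mll4SI and 1 (Mecom) in Mll3/4SI. The share of all genes past 1.5-fold was not computed for the alternatives, so these counts have no background beside them. With the class replaced by the 25% of all kept cells highest in Sca-1 antibody, pooled over libraries, the set held 1302, 3428, 1231 and 1965 cells. These are unlike parts of the 6743, 8023, 10186 and 6755 kept cells. Mecom log2 ratios were then -0.75 in Mll3SI (a change of sign), -0.78 in Mll4SI and -1.96 in Mll3/4SI. In this set 6 members lay past 1.5-fold on the lower side in each comparison, and the part of cell composition was not tested. Hashtag1 cells gave Mecom 0.53 and -0.31 in Mll3SI and Mll4SI, with 1 member lower in Mll3SI and 2 in Mll3/4SI. Hashtag2 cells gave 0.21, -0.59 and -0.37, with 2 lower in Mll4SI and 0 in Mll3/4SI. Leiden resolution 2 put 821 Mll3/4SI cells in the class in place of 399 and the class of the nearest control cells 1215, with Mecom at -1.26 and -1.97, 1 member higher under each, and 4 lower under the second. A mean over cells gave Mecom -0.55 in Mll4SI, and 5 CPM added left 0 members lower there in place of 1. Alternatives added after seeing the data were as follows. The less proliferative cluster alone gave Mecom -0.63 and 2 members lower in Mll4SI. The more proliferative one gave 0.26 in Mll3SI with 1 lower, and -0.27 in Mll4SI with 1 higher and 0 lower. The Sca-1-high cells of the class gave 0.19 with 1 higher in Mll3SI, 1 higher in Mll4SI, and -0.51 with 0 lower in Mll3/4SI. Counting in the Cpa3/Fcer1a cells gave -2.62 with 4 lower in Mll3/4SI. Resolution 0.5 gave no HSC/MPP-like cluster and so no value. Depth limits Tcf15 (12 to 43 UMIs) and Mycn (73 to 158 UMIs) in the class. No paired analysis was possible because each group has 1 library.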
